A study of Rattus norvegicus with 6 samples.

Results

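The IFIT genes Ifit1, Ifit2 and Ifit3, the viperin gene Rsad2 and its neighbour Cmpk2, and Ifi44l were followed in dissociated spinal cord cultures grown on carbon nanotubes (CNT) or on polyornithine (control). These 6 genes of the 14217 on the array were found by gene symbol, and they were covered by 8 of the 20826 probe sets that the array's annotation pairs with a single gene. They had been chosen by their measured CNT and control values on these same arrays, so every difference between CNT and control given for them is a description without a test, and it supports nothing by itself.

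RNA came from 6 cultures, 3 on each substrate, and each was hybridized to a separate Rat Genome 230 2.0 array from Affymetrix. Control cultures 1, 2 and 3 were plated on coverslips covered with polyornithine and CNT cultures 1, 2 and 3 on coverslips covered with a layer of multiwalled carbon nanotubes, and the labels name no transgene or drug for either group. All were made from spinal cords of rats of postnatal days 1 to 4, and RNA was taken at 8 days in vitro. The labels call the rats Sprague-Dawley and the methods call them Wistar, and the labels give the replicates as biological. The cultures are mixed. Markers of astrocytes (10 of 11 listed markers measured), the oligodendrocyte lineage (10 of 11), neurons (12 of 12) and microglia and macrophages (19 of 20) were on the array, and log2 expression of the astrocyte gene Gfap was between 13.70 and 14.38, that of the myelin gene Mbp between 14.22 and 14.72, and that of the microglial gene Aif1 between 11.98 and 13.15 over the 6 arrays. In such bulk RNA, fewer cells of a type and less RNA per cell cannot be told apart.

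All 6 genes are interferon-stimulated genes. When a cell detects viral or displaced nucleic acid it secretes type I interferon, the receptor of which activates transcription factors that bind a DNA element called the interferon-stimulated response element (ISRE). IFIT proteins bind RNA and restrain translation of RNA with a foreign 5′ end. Viperin is a radical SAM enzyme that turns CTP into a chain terminator of viral polymerases, and CMPK2, encoded beside it, is a nucleoside monophosphate kinase of mitochondria that can supply CTP. IFI44L is an interferon-induced protein whose function is less well defined. In the central nervous system microglia, astrocytes and neurons can all respond to type I interferon.

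The DNA just before the gene start is shown because the members share this known route of control. Of the 6 members, 4 matched a window in the RefSeq promoter table (Ifit3, Rsad2, Cmpk2 and Ifi44l), and Ifit1 and Ifit2 did not. Each sequence is the 250 bases before the start, 5′ to 3′ on the strand of the gene, in build GRCr8, at chr1:241527076-241527325 (plus strand) for Ifit3, chr6:48788121-48788370 (minus strand) for Rsad2, chr6:48802600-48802849 (plus strand) for Cmpk2 and chr2:243328473-243328722 (plus strand) for Ifi44l. Capitals mark matches to GAAANNGAAA, the core letters of the ISRE, or to the same letters with a single base between the repeats, GAAANGAAA, on either strand.
Ifit3: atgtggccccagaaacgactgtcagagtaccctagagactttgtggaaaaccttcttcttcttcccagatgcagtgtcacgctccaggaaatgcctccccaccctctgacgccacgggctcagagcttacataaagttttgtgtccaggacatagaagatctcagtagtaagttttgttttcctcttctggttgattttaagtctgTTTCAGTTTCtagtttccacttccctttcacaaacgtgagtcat
Rsad2: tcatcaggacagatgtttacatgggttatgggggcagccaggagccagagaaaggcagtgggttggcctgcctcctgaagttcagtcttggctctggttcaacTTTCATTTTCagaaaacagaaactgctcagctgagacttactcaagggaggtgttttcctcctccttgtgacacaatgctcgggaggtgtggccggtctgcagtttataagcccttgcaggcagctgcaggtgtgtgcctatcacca
Cmpk2: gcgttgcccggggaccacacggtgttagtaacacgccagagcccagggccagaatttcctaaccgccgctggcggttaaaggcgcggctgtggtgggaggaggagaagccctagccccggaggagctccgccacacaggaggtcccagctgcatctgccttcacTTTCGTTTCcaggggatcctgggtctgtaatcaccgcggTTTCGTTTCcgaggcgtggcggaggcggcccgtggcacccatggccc
Ifi44l: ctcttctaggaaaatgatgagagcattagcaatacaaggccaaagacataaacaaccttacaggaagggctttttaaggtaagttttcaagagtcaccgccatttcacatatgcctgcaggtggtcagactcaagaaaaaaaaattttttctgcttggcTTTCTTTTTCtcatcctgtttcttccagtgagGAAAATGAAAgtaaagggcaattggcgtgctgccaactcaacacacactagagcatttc

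An ISRE match was found in 3 of these 4 windows. It lay 44 to 35 bases before the start of Ifit3 as TTTCAGTTTC and 147 to 138 bases before that of Rsad2 as TTTCATTTTC, both on the reverse strand. Ifi44l held 2 matches, TTTCTTTTTC at 91 to 82 bases and GAAAATGAAA at 59 to 50 bases before its start. The window of Cmpk2 held no GAAANNGAAA but 2 copies of TTTCGTTTC, which match GAAANGAAA, at 86 to 78 and 47 to 39 bases before its start. That shorter spacing was searched for only after the sequences had been seen, and it shares its repeats with the ISRE. Of 33469 windows of the same length in the table, 3.41% held GAAANNGAAA and 2.96% held GAAANGAAA. The match was not particular to the members. Among other genes searched that had a window, Oas1a, Oas1b, Eif2ak2, Ifi44 and Tap1 also held GAAANNGAAA, and Mx1, Oasl, Psmb9 and Ch25h did not. The letters of the gamma interferon element, TTCNNNGAA, were in 7.67% of windows and in 1 of the 4 member windows, that of Ifi44l. A match is a description of letters and was not tested as a binding site.

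Ifit3 had the widest separation of means on the array. Log2 expression was 5.79, 5.43 and 10.23 in control cultures 1, 2 and 3 and 10.38, 10.35 and 11.79 in CNT cultures 1, 2 and 3 (probe set 1376908_at). Controls 1 and 2 were low, while control 3 lay just under the lowest CNT culture, 0.12 log2 below it. In controls 1 and 2 Ifit3 was dim, with 10.1% and 7.72% of the array's genes below it, and whether it was above background there was not tested. The control mean was 7.15 ± 2.67 and the CNT mean 10.84 ± 0.82 (SD, n = 3 each), a log2 difference of 3.69 (standard error 1.31) or 12.9-fold, which ranked 1 among the 14217 genes by size.

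Ifit2, the neighbour of Ifit3 on chromosome 1, was read by 2 probe sets. The leading probe set, 1384180_at, gave 11.11, 9.96 and 12.26 in control and 11.94, 12.55 and 13.11 in CNT cultures. CNT 1 was below control 3, so the groups overlapped. The means were 11.11 ± 1.15 and 12.53 ± 0.59 (SD, n = 3 each), a log2 difference of 1.42 (standard error 0.61) or 2.68-fold. The other, 1379568_at, gave 8.74, 8.65 and 10.58 in control and 10.74, 10.48 and 11.61 in CNT cultures, a log2 difference of 1.62 (standard error 0.59). Both placed control 3 above the other controls and CNT 3 above the other CNT cultures, and their values correlated with r = 0.924 over the 6 arrays. They differed in the order of CNT 1 and CNT 2.

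Ifit1 had the narrowest difference of the 6 genes and a different order of cultures. Log2 expression was 7.45, 7.83 and 8.46 in control and 8.39, 10.004 and 8.97 in CNT cultures (1369836_at). CNT 2 was the highest culture for Ifit1, whereas CNT 3 was the highest for the other 5 genes, and CNT 1 was 0.07 log2 below control 3. The means were 7.91 ± 0.51 and 9.12 ± 0.82 (SD, n = 3 each), a log2 difference of 1.21 (standard error 0.46) or 2.31-fold.

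For Rsad2, which encodes viperin, log2 expression was 8.10, 7.67 and 11.69 in control and 11.51, 11.88 and 13.06 in CNT cultures (1370913_at). The pattern was that of Ifit3, with controls 1 and 2 far below the other 4 cultures, but control 3 was above CNT 1 by 0.18 log2, so the groups overlapped. The means were 9.15 ± 2.21 and 12.15 ± 0.81 (SD, n = 3 each), a log2 difference of 3.00 (standard error 1.10) or 7.98-fold, the rank next to that of Ifit3.

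Cmpk2, the kinase gene beside Rsad2, was also read by 2 probe sets. The leading one, 1383424_at, gave 9.20, 8.53 and 10.76 in control and 10.73, 11.52 and 12.09 in CNT cultures, with means of 9.50 ± 1.14 and 11.44 ± 0.68 (SD, n = 3 each), a log2 difference of 1.95 (standard error 0.63) or 3.85-fold. CNT 1 and control 3 differed by 0.03 log2 there, with control 3 the higher. The other, 1393044_at, gave 6.67, 6.63 and 8.43 in control and 8.56, 8.91 and 9.74 in CNT cultures, a log2 difference of 1.83 (standard error 0.57). On this probe set the groups did not overlap, by a margin of 0.13 log2, and the values of the pair correlated with r = 0.984. Whether Cmpk2 is counted as overlapping thus turned on the probe set.

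For Ifi44l, log2 expression was 7.40, 6.51 and 10.09 in control and 9.95, 10.55 and 11.35 in CNT cultures (1379748_at). Control 3 was between CNT 1 and CNT 2. The means were 8.003 ± 1.86 and 10.62 ± 0.70 (SD, n = 3 each), a log2 difference of 2.61 (standard error 0.93) or 6.12-fold.

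**Figure D1:**
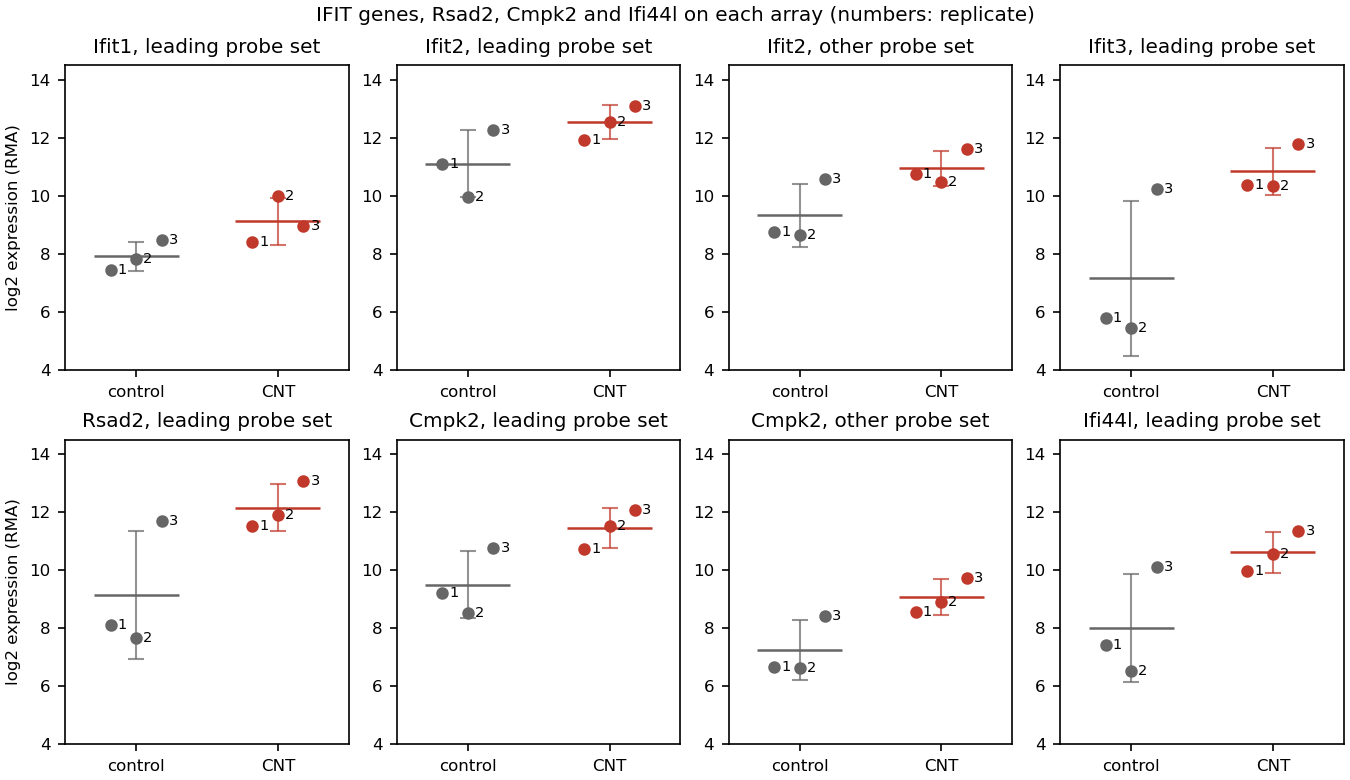
Log2 expression (RMA, vertical axis) of the 8 probe sets of the 6 genes in control (grey) and CNT (red) cultures, with each point labelled by its replicate number and with the mean (line) and SD (bar) of 3 cultures. Control 3 is the highest control in every panel, and the groups are separate only for Ifit3 and the other probe set of Cmpk2.

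Set beside the whole array, 6 of the 6 genes had a CNT mean over 2-fold higher, where 0.746% of all genes did, which follows from the way they were chosen and from which nothing is read. Their median log2 difference was 2.28, against 0.03 over all genes. Every CNT culture was above every control culture in 1 of the 6 genes, Ifit3 (2 of the 8 probe sets), against 5.94% of all genes, and this too uses the values that chose them. With limma and Benjamini-Hochberg adjustment over all genes, 0% of the 14217 genes passed 0.05, and the smallest adjusted p was 0.847. At an unadjusted p under 0.05, limma counted 342 genes higher and 101 lower in CNT cultures. For a single value, the smallest p of an exact permutation test (two-sided) on 3 and 3 arrays is 0.1, and so few arrays limit the precision.

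Control 3 stood apart from the other control cultures. It was the highest control for all 6 genes, and for 5 of them it was over 1 log2 above both other controls, a pattern seen in 1.62% of all genes. It exceeded the mean of controls 1 and 2 by 4.62 log2 for Ifit3, 3.81 for Rsad2, 3.14 for Ifi44l, 1.89 for Cmpk2, 1.72 for Ifit2 and 0.82 for Ifit1. CNT 3 was the highest CNT culture for 5 of the 6 genes, against 34.5% of all genes. These are counts over genes whose values go together, so they do not add up as separate observations.

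The size of each difference therefore depended on the reference culture. Against controls 1 and 2 alone, the CNT mean was higher by 5.23 log2 for Ifit3 (37.4-fold), 4.27 for Rsad2 (19.2-fold), 3.66 for Ifi44l (12.6-fold), 2.58 for Cmpk2 (5.97-fold), 2.00 for Ifit2 (3.99-fold) and 1.48 for Ifit1 (2.79-fold). Against control 3 alone, it was higher by 0.61 log2 for Ifit3, 0.46 for Rsad2, 0.52 for Ifi44l, 0.68 for Cmpk2, 0.28 for Ifit2 and 0.66 for Ifit1. In controls 1 and 2 the values of Ifit3, Ifit1 and Ifi44l, and in control 2 that of Rsad2, lay within the dimmest 30% of genes on the array, and detection above background was not analysed here. Folds against these cultures, that of Ifit3 above all, therefore depend on the dim end of the log2 scale and are not exact sizes. The order of the genes was not kept, with Ifit3 first against controls 1 and 2 and Cmpk2 first against control 3. Every CNT culture was above controls 1 and 2 for 6 of the 6 genes, against 12.9% of all genes. This count uses the values that chose the genes and leaves out control 3 after its values were seen, so nothing is read from it.

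**Figure D2:**
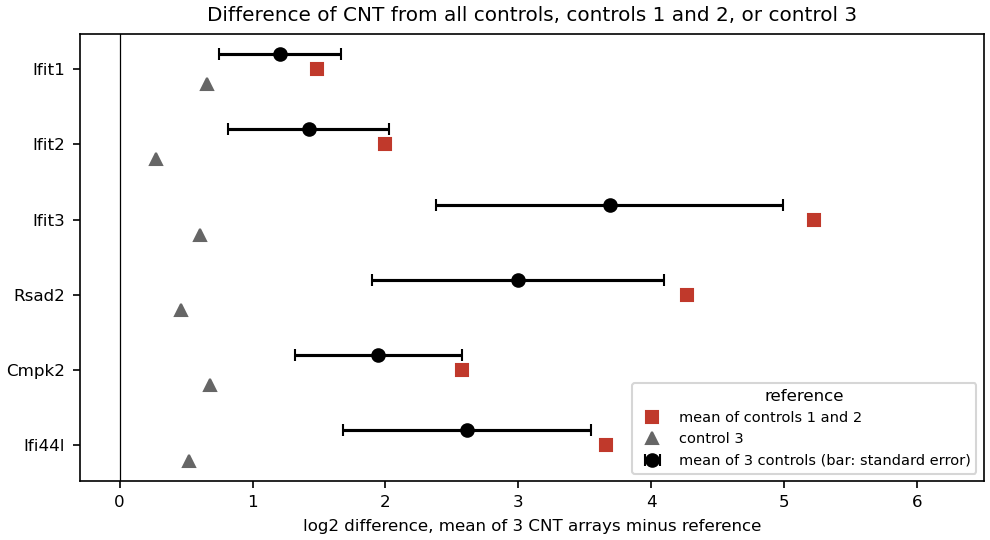
Log2 difference (horizontal axis) between the mean of 3 CNT cultures and the mean of all 3 controls (black, bar: standard error), of controls 1 and 2 (red squares) or of control 3 alone (grey triangles), for each gene. All differences lie above 0, and those from control 3 lie between 0.28 and 0.68, below those from the other references for every gene.

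Some arrays stood near each other across the substrates in more than these genes. Over all 31099 probe sets, Pearson's r between arrays lay between 0.971 and 0.992, and control 3 was most like CNT 3 (0.992), while control 2 was most like CNT 1 (0.992). These correlations are across probe sets, which are not independent replicates. CNT 3 was above control 3 by 1.55 log2 for Ifit3, 1.37 for Rsad2, 1.33 for Cmpk2, 1.26 for Ifi44l, 0.85 for Ifit2 and 0.50 for Ifit1. CNT 1 was above control 2 by 4.95 log2 for Ifit3, 3.84 for Rsad2, 3.44 for Ifi44l, 2.20 for Cmpk2, 1.98 for Ifit2 and 0.57 for Ifit1. For RNA quality, the 3′ end of beta-actin read higher than the 5′ end, with a gap of 2.20, 0.62 and 0.66 log2 in controls 1, 2 and 3 and of 0.92, 2.20 and 1.72 in CNT 1, 2 and 3. Without control 1 and CNT 2, the arrays where this was widest, the median log2 difference of the 6 genes was 2.06.

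Across the 6 arrays, the genes other than Ifit1 varied together, with Pearson's r from 0.937 (Ifit2 and Ifit3) to 0.998 (Ifit3 and Rsad2). Ifit1 correlated with the other 5 genes at r between 0.722 and 0.806. After each group's mean was taken out, the correlations of the deviations were 0.876 to 0.995 without Ifit1 and 0.413 to 0.544 with it. These are descriptions over n = 6 arrays that share a substrate difference and, for the deviations, the high value of control 3.

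The genes most like the 6 members were ranked by correlation with their score, which is the mean over the members of the log2 value less each gene's mean over 6 arrays. They were Tap1 (r = 0.996), the peptide transporter of antigen presentation, Oasl (0.995), an oligoadenylate synthetase-like protein, Psmb9 (0.994), an immunoproteasome subunit, Usp18 (0.994), which removes ISG15 and damps interferon signalling, LOC103691468 (0.994) and Dhx58 (0.993), an RNA sensor of the RIG-I family. Log2 differences between CNT and control were 1.15 for Tap1, 2.83 for Oasl, 1.00 for Psmb9, 2.61 for Usp18, 2.05 for LOC103691468 and 1.63 for Dhx58. By deviations from the group means, which leave out the difference between substrates, the most alike were Nsmaf (0.997), Sdcbp (0.996), Atp6ap2 (0.996), Eva1a (0.996), Cd1d1 (0.996) and Irgm2 (0.996). Among these, log2 differences ranged from 0.01 for Sdcbp to 1.22 for Irgm2, an interferon-inducible GTPase, so genes with a mean difference near 0 also had the order of cultures that the member score had within each group.

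**Figure D3:**
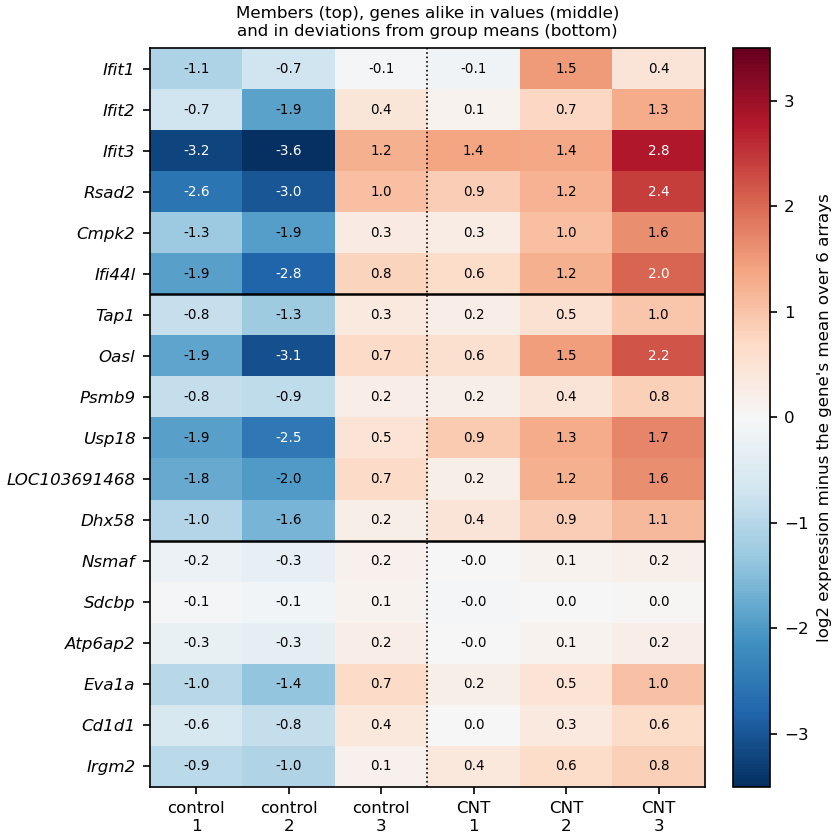
Log2 expression less each gene's mean over 6 arrays (colour and printed value) for the 6 members (top), the 6 genes most alike in values (middle) and the 6 most alike in deviations from group means (bottom), by culture. Controls 1 and 2 are below 0 in every row, and control 3 is above 0 in every row except that of Ifit1.

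The members sit in 3 places of the genome, and the genes around them gave a view of whether the differences stretched along the chromosome. By RefSeq gene order in GRCr8, Ifit2, Ifit3 and Ifit1 lie in that order on chromosome 1 between Lipa and Slc16a12. A protein-coding gene that was not measured here lies between Ifit3 and Ifit1. On chromosome 6 Rsad2 and Cmpk2 lie side by side on opposite strands, and on chromosome 2 Ifi44l lies beside Ifi44. Of the 30 distinct genes among the 5 nearest measured genes on each side, 14 had a positive log2 difference, their median was -0.01, and 26 lay within 0.58 log2 of 0. None passed limma at an adjusted p of 0.05.

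The genes bordering the IFIT row had log2 differences of 0.45 (standard error 0.25) for Lipa, the lysosomal acid lipase gene, and -0.21 (standard error 0.44) for Slc16a12, a monocarboxylate transporter gene. Beyond Lipa, Ch25h, which makes the antiviral oxysterol 25-hydroxycholesterol, was at 10.56, 10.47 and 10.61 in control and 11.42, 11.70 and 11.51 in CNT cultures. Here control 3 lay with the other controls, and the log2 difference was 1.00 (standard error 0.11, adjusted p = 0.847 with limma). Stambpl1, a deubiquitinase gene farther along, had a log2 difference of 0.61 (standard error 0.17) with groups that did not overlap. Beside Rsad2 and Cmpk2, the values were 0.10 for Rnf144a and -0.24 for Sox11.

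Ifi44, the paralogue next to Ifi44l, was at 9.25, 7.83 and 9.79 in control and 9.90, 10.31 and 10.93 in CNT cultures. Its groups did not overlap, and its log2 difference was 1.42 (standard error 0.54, adjusted p = 0.999 with limma). On the other side of Ifi44l, Ptgfr, the prostaglandin F receptor gene, had a log2 difference of 0.00 (standard error 0.13). The lowest value among all 30 neighbours was -0.68 (standard error 0.37) for Nexn.

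**Figure D4:**
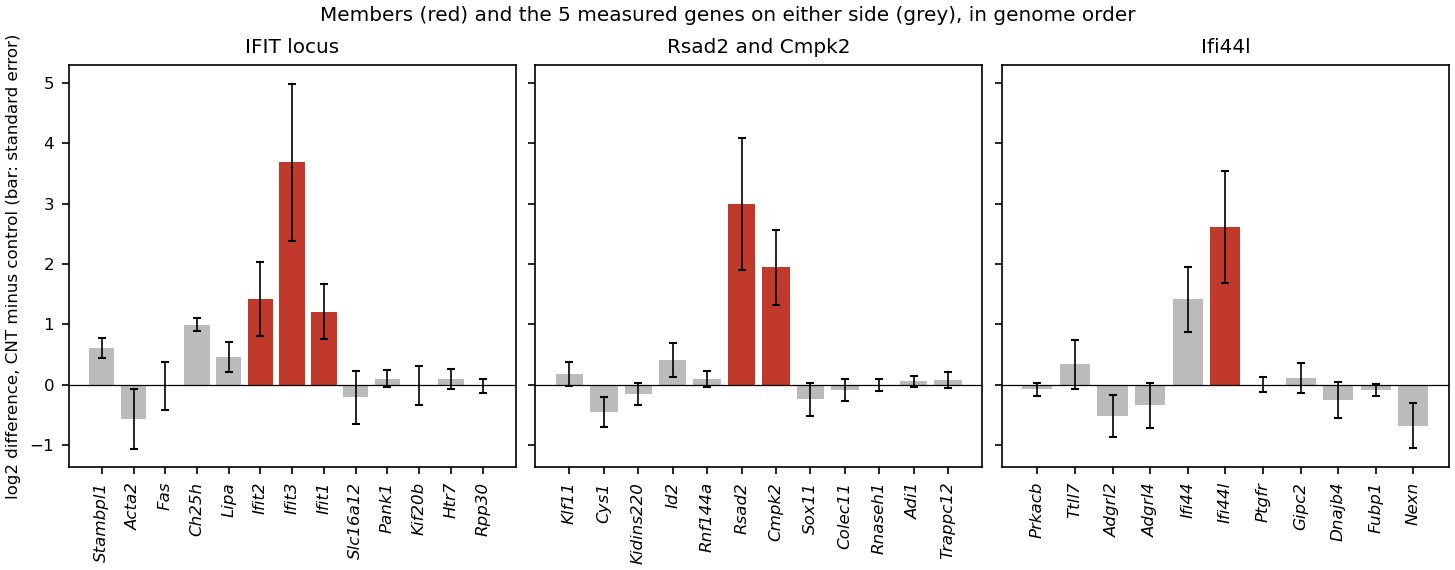
Log2 difference between CNT and control means (vertical axis, bar: standard error) for the members (red) and the 5 nearest measured genes on each side (grey), in genome order at each of the 3 places. Among the grey bars, Ifi44 (1.42), Ch25h (1.00) and Stambpl1 (0.61) are over 0.58 above 0, and Nexn (-0.68) is below it by more than that.

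The pathway upstream of the members was described from lists of known genes, none of which had a gene that passed limma in either direction. The lists here and below were drawn up with earlier results of these data known. Their counts beside the share of all genes are therefore descriptions and no support. Some listed genes, such as Irf7, are themselves induced by interferon. Among 9 measured genes for interferon ligands and receptors of 17 listed, 8 had a positive log2 difference, with a median of 0.06. Ifnb1, which encodes interferon beta, was at 4.99, 5.14 and 5.62 in control and 5.38, 5.53 and 5.91 in CNT cultures. The log2 difference of Ifnb1 was 0.35 (standard error 0.22), with control 3 the highest control and CNT 3 the highest CNT culture. These values are dim, near those of Ifit3 in controls 1 and 2, and detection above background was not analysed. Nothing is read from their order, and Ifnb1 was picked out after its values were seen. The other measured ligand genes were also dim, Ifnk between 4.31 and 4.55 and Ifng between 4.37 and 4.59. None of the listed interferon alpha genes was measured. The receptor gene Ifnar2 had a log2 difference of 0.45 (standard error 0.19), Il10rb, a receptor chain shared by interferon lambda, 0.34 (standard error 0.16), and Ifngr1 -0.03 (standard error 0.25).

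Of 10 measured genes for signal transduction and transcription factors, 8 had a positive log2 difference, with a median of 0.30, and in 4 every CNT culture was above every control, against 5.94% of all genes. Irf7, the interferon-induced factor that amplifies interferon production, was at 10.30, 8.98 and 11.91 in control and 12.65, 13.14 and 13.30 in CNT cultures, a log2 difference of 2.64 (standard error 0.71). Control 3 was again the highest control, but unlike in most of the members it stayed below every CNT culture. Irf9 and Stat2, which encode transcription factors of the interferon response, had log2 differences of 0.80 (standard error 0.16) and 0.81 (standard error 0.25), with separate groups in both. The kinase gene Jak1, of highest mean in the list, had a value of -0.04 (standard error 0.10).

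Among 13 measured sensors and adaptors of nucleic acid detection, 10 were positive, with a median of 0.34, and 4 had separate groups (5.94% of all genes did). Zbp1, a sensor of Z-form nucleic acid, had a log2 difference of 2.30 (standard error 0.53), Dhx58 of 1.63 (standard error 0.48) and the adaptor gene Ticam1 of 0.34 (standard error 0.11). Irak1 had a value of 0.08 (standard error 0.13). Among 12 measured brakes on the interferon response, 10 were positive, with a median of 0.18, and 4 had separate groups, beside the same 5.94%. Usp18 had a log2 difference of 2.61 (standard error 0.76), Trex1, an exonuclease that clears cytosolic DNA, of 0.98 (standard error 0.20), and Samhd1, which degrades deoxynucleotides, of 0.80 (standard error 0.22). Ptpn11 had a value of -0.02 (standard error 0.13).

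The other antiviral effectors resembled the members in size. All 6 measured genes of the Mx and oligoadenylate synthetase list, of 17 listed, were positive, with a median of 2.50, and 3 had separate groups, against 5.94% of all genes. Log2 differences were 2.97 (standard error 0.84) for the antiviral GTPase gene Mx1, 2.84 (standard error 0.79) for the synthetase gene Oas1a and 2.18 (standard error 0.62) for Mx2. Control 3 was over 1 log2 above both other controls in 4 of the 6, as it was in 5 of the 6 members. The scores of this list were -1.24, -2.40 and 0.36 in controls 1, 2 and 3 and 0.62, 1.21 and 1.46 in CNT 1, 2 and 3, beside -1.79, -2.31 and 0.62 and then 0.52, 1.18 and 1.77 for the members. In both, controls 1 and 2 were far below the other 4 cultures. Control 3 was below CNT 1 in the first list and above it in the second. Whether the lists differed was not tested.

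Of 5 other genes that share the members' name prefix, 1 was positive, Ifi44, and the other 4, Ifitm1, Ifitm2, Ifitm3 and Ifitm10, which belong to a separate family of membrane proteins, had log2 differences between -0.15 and -0.01. Ifitm3, which blocks viral entry, had a value of -0.05 (standard error 0.13).

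Genes of pathways linked to the members' proteins were described in the same way. Among 22 measured genes for the supply of pyrimidine nucleotides, the pathway of CMPK2, 12 were positive and the median was 0.02. Ak4 had a log2 difference of 0.66 (standard error 0.30), Upp1 of 0.62 (standard error 0.28), and Cmpk1, the cytosolic counterpart of Cmpk2, of 0.04 (standard error 0.12). Of 16 genes for other radical SAM enzymes and for iron-sulphur assembly, 12 were positive, with a median of 0.08. Ciao2a had a value of 0.32 (standard error 0.11), Ciao1, which hands clusters to viperin, of 0.21 (standard error 0.11) and the scaffold gene Iscu of -0.02 (standard error 0.09).

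Viperin is also linked to the mevalonate route and to lipid droplets. Among 14 measured genes of these, 10 were positive, with a median of 0.05. The lipid droplet coat gene Plin2 had a log2 difference of 0.54 (standard error 0.29), Ggps1 of 0.17 (standard error 0.13), Hadhb of -0.12 (standard error 0.09) and Vapa of -0.01 (standard error 0.08). Among 10 genes for cap methylation, RNA decay and related RNA handling, listed for their links to IFIT proteins, 5 were positive, with a median of -0.004. Cmtr1, the cap methyltransferase whose mark protects RNA from IFIT1, had a value of 0.31 (standard error 0.10) with separate groups. Ddx60, an interferon-stimulated helicase gene, had a value of 1.76 (standard error 0.67) and groups that overlapped, and Eif3c, an initiation factor subunit, a value of -0.03 (standard error 0.08). The medians of the pyrimidine, mevalonate and cap lists and of the prefix list took either sign under other settings, so no direction is given for them.

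Markers of other cell types were set beside the members on each array. Of 19 measured microglia and macrophage markers, 17 were positive, with a median of 0.27, and 2 of the 19 had separate groups, against 5.94% of all genes. Cd14, a coreceptor for lipopolysaccharide, had a log2 difference of 0.63 (standard error 0.19). The 2 negative markers were Tmem119 at -0.34 (standard error 0.26) and P2ry12 at -0.07 (standard error 0.34). Their score was -0.55, 0.09 and 0.02 in controls 1, 2 and 3 and 0.28, 0.33 and -0.18 in CNT 1, 2 and 3 (exact two-sided permutation p = 0.4, n = 3 each). CNT 3, with the highest member score, had the lowest microglial score of its group. Control 2, lowest for the members, was the highest control for microglia. Other cultures went together in both scores. Control 1, lowest for microglia, was also low for the members (-1.79), and CNT 2, highest for microglia, was next to CNT 3 for the members (1.18). The median of the microglial markers was positive in 17 of 17 alternative settings, from 0.002 without control 1 and CNT 2 to 0.56 without control 3 and CNT 3.

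Of 15 fibroblast and meningeal markers, 14 were negative, with a median of -0.80. Their score was 0.60, 0.25 and 0.26 in control and -0.11, -1.28 and 0.28 in CNT cultures (exact two-sided permutation p = 0.3, n = 3 each). The median was -0.17 without CNT 2, so its size rested largely on that culture. Log2 differences were -1.44 (standard error 0.47) for Fbln2, -1.21 (standard error 0.42) for Fbln5 and -1.82 (standard error 0.90) for Aspn. Col3a1, of highest mean, had a value of -0.43 (standard error 0.23). The groups overlapped for Aspn and Col3a1 and not for Fbln2 and Fbln5. The share of all genes separate in this direction was not counted, so nothing is read from this. The scores of the other marker lists, in the same exact two-sided permutation test with 3 cultures a group, gave p = 0.2 for lymphocytes, NK cells and plasmacytoid dendritic cells, 0.6 for neutrophils and mast cells, 0.5 for astrocytes, 0.3 for neurons, 0.7 for the oligodendrocyte lineage and 0.2 for endothelium. Adjusted over the 8 marker lists by Benjamini-Hochberg, these exact p-values lay between 0.6 and 0.7. The smallest p this test can give with 3 cultures a group is 0.1. No marker list could therefore have reached the threshold used for limma, before or after adjustment. The p-values of the 8 lists thus do not show that the markers were alike in CNT and control cultures. Log2 values from RMA have no zero, so absence of a marker cannot be read from them. The part of cell composition in the members' values was not tested.

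**Figure D5:**
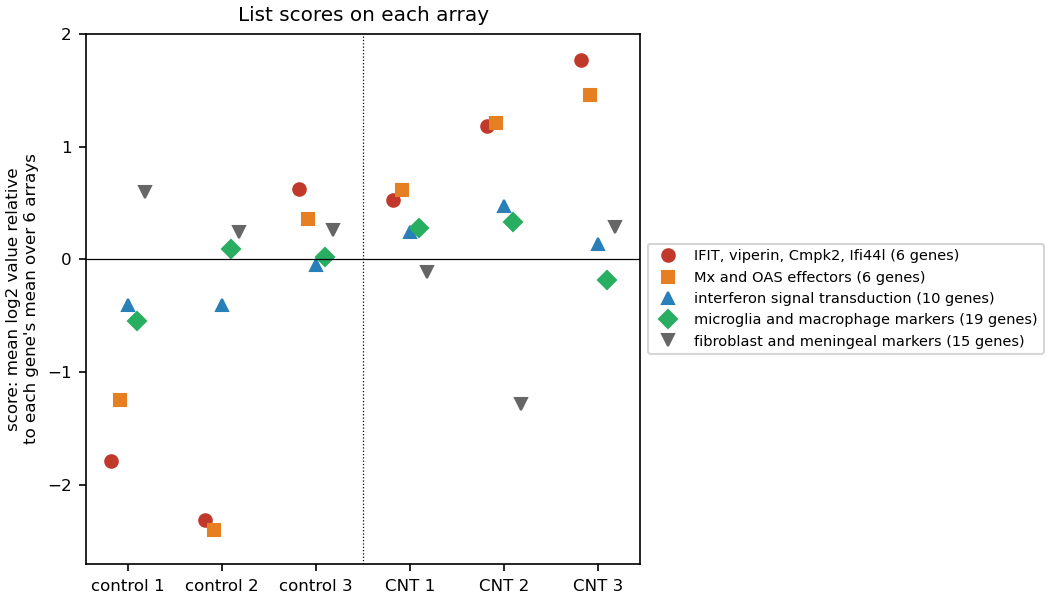
Score of each list on each array (vertical axis: mean over the list's genes of the log2 value less the gene's mean over 6 arrays) for the 6 members, the Mx and OAS effectors, signal transduction genes, and the microglial and fibroblast markers. Member scores run from -2.31 in control 2 to 1.77 in CNT 3, whereas microglial scores run from -0.55 in control 1 to 0.33 in CNT 2.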

How the data were processed

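The authors deposited log2 expression values made from Affymetrix arrays with RMA, which corrects background, normalizes arrays together and summarises probes into probe sets. The version is not given in the sources used here. RMA makes the arrays' distributions alike, so a shift shared by most genes would not be seen. Values were used as deposited. Left out were 57 control probe sets, 436 annotated to several genes and 9780 annotated to no gene, and each of 14217 genes was led by its probe set of highest mean over 6 arrays. The labels give RNA extraction with TRIzol and RNeasy, the methods another kit, and 100 ng of RNA was amplified.

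CNT and control arrays were compared without pairing with limma 3.58.1 (lmFit, eBayes; R 4.3.3), and p-values were adjusted over all genes by Benjamini-Hochberg, with a threshold of 0.05. The study used the rank product, which was not used here because its error rate comes from resampling genes. Standard errors are limma's. Scores, figures and motif searches used Python 3.11.15. The limma fit alone was tested on simulated data. Their noise was capped below the SDs of the members, so that test does not cover the spread seen in these genes. Promoter windows and gene order are from RefSeq (GRCr8).

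The members and the gene lists were chosen with earlier results of these data known. Genes named are the members with all their probe sets, the 6 genes most correlated with the member score by values and by deviations, from each list the gene of highest mean and up to 3 with the smallest unadjusted p, and neighbours at the border or over 0.58 log2. Some genes, among them Ifnb1, Ifnk, Ifng, Tmem119 and P2ry12, were named outside this rule. Alternatives were a replicate block, quantile, cyclic loess and median centring, probe sets averaged or taken singly, omission of the dimmest 30% of genes, a trend and robust fit, array weights, and leaving out arrays singly. Leaving out pairs of arrays and the shorter motif spacing were added after seeing the data.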

Additional observations from a re-analysis of the deposited data

How the results depend on the processing

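The log2 difference of each member was positive in 96 of 96 alternative values, from 0.53 (Ifit1, without control 1 and CNT 2) to 5.23 (Ifit3, without control 3), and the member median lay between 1.67 (without control 2) and 3.12 (without control 3). These values reuse the arrays that chose the members, so their signs are no support. The replicate block, the filter on dim genes and the trend and robust fit leave each difference unchanged by construction. The number of members with separate groups was 1, and it was 2 with median centring or with probe sets averaged per gene, 6 without control 3 and CNT 3 together, and from 1 to 6 with each array left out in turn, the 6 being reached without control 3 or without CNT 1. Fewer arrays separate more genes by construction. Of all genes, 5.94% were separate with all arrays, 10.1% with median centring, 6.29% with probe sets averaged, 12.9% when control 3 was left out, 11.1% when CNT 1 was, and 23.9% when both control 3 and CNT 3 were. Limma called 0 genes, from 0 to 2 with each array left out (Mx1 and Prl6a1, without control 3), and 1 without control 3 and CNT 3, which was Ifit3. That call is on values that chose the gene, and it is no support. The arrays were removed because each had the highest member score of its own group.

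Median log2 differences of lists that moved by more than 1 SD were as follows. Interferon ligands and receptors were at 0.25 without the dimmest 30% of genes, 0.22 without control 3 and CNT 3, and 0.086 to 0.200 with each array left out. Signal transduction was at 0.57 without control 3 and CNT 3, and sensors at 0.12 without control 1 and CNT 2. Lymphocyte markers were at 0.37 without the dimmest 30% of genes. Fibroblast markers were at -0.12 without control 1 and CNT 2 and from -1.06 to -0.17 with each array left out. Endothelial markers were at 0.00503 to 0.161 with each array left out. The cause was not tested. The other 338 values of medians and counts stayed within 1 SD or 1.5 times.

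With the replicate number as a block, limma called 0 genes and the member median was 2.28. The standard errors of the members were smaller with the block, at 0.73 in place of 1.31 for Ifit3 and 0.58 in place of 1.10 for Rsad2. The paper describes its replicates as culture series for each substrate, and neither it nor the labels say which arrays shared a series. Deviations of equally numbered arrays correlated at -0.13, 0.36 and 0.51, and control 2 correlated best with CNT 1 (0.68), so the numbers were not taken as pairs. Whether some control and CNT cultures came from the same series cannot be told from this.

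The values are arrays with no counts, and 3 per group limit the precision. The filter on dim genes used the mean over 6 arrays, so members passed it through the arrays where they were high. Saturation and probe-level signal were not analysed here.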
